A study of Homo sapiens with 8 samples.

Results

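The 37 genes described here belong to the integrated stress response and the amino acid supply it controls. They were taken by symbol from a count table of 25369 genes, and all 37 passed the filter on low counts that kept 14016 genes. They comprised 6 stress transcription factors, 6 stress effectors, 6 enzymes of serine, one-carbon and asparagine synthesis, 6 amino acid transporters and 13 cytosolic tRNA synthetases, given here under the older symbols of the table (GARS, MARS and so on). The rule lists them by symbol and uses no measured value, although it was drawn up with earlier results of these data known.

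The genes were measured by RNA sequencing in MDA-MB-231, a human breast cancer cell line of mesenchymal character that lacks the estrogen receptor. SUN2 is a protein of the inner nuclear membrane that links the nuclear lamina to the cytoskeleton through nesprins. SUN2KO was the SUN2 knockout. Kashlid libraries carried a SUN2 without residues 569 to 585, a deletion designed to break its link to Nesprin-2G, and LBD libraries a SUN2 without residues 1 to 139, its lamin-binding domain. WT was the wild-type line. Each group had 2 libraries. The labels do not say in which cells the truncated proteins were made, how they were introduced, or whether the lines were single clones. Whether the libraries of one group were grown apart is not stated either, so each p-value reflects library-to-library spread alone, and that spread could be technical.

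In the integrated stress response, kinases that sense amino acid shortage, unfolded protein, double-stranded RNA or heme shortage phosphorylate the translation factor eIF2. Most translation then falls while that of ATF4, a transcription factor, rises, and ATF4 with C/EBP partners switches on genes for amino acid synthesis, uptake and tRNA charging. Because ATF4 is known to be controlled mainly at translation, its mRNA level is not a measure of its protein.

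Libraries held 16570099 to 18814795 counts. SUN2 had 25.6 and 30.3 counts per 1e6 counts (CPM) in SUN2KO, 37.2 and 35.4 in Kashlid, and 32.5 and 34.6 CPM in LBD, against 83.7 and 81.9 in WT, so its transcript was low, and not absent, in all 3 lines; protein was not measured here. VIM (281 to 408 CPM), CD44 (310 to 420 CPM) and AXL (95 to 112 CPM), which mark MDA-MB-231, were present in every library, as were CAV1, SPARC and S100A4. Of the markers held to be low or absent in that line, PGR, ESR1 and GATA3 stayed under 1 CPM, CDH1 reached 1.68 CPM, and EPCAM had 4.28 to 8.70 CPM in the lines, against 2.85 and 3.47 CPM in WT. Of the genes that mark HEK293T, the other cells grown in the study, TFAP2B and SOX3 were at 0 in every library and NEFM and NEFL reached at most 0.176 CPM. LIN28B had 0.347 to 0.913 CPM in the 6 libraries of the lines, against 0 in both WT libraries, and TUBB2B had 4.45 to 5.53 CPM in the lines, against 9.21 and 8.92 CPM in WT. The part of these differences in the results was not tested. The libraries of the Kashlid group stood apart from each other in the 37 genes: replicate 1 was above replicate 2 in 35 of 37, by a median of 0.34 on the log2 scale, against 49.2% of all genes tested.

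Set against WT, most of the 37 genes moved little, and no single direction covered them. In SUN2KO, 3 members rose, 9 fell and 25 did not pass the test (adjusted p under 0.05 over all genes, edgeR quasi-likelihood test with Benjamini-Hochberg adjustment), or 32.4% called against 36.7% of all genes (8.11% higher and 24.3% lower, against 17.5% and 19.1%). In Kashlid, 8 rose, 11 fell and 18 did not pass, or 51.4% against 44.5% of all genes (21.6% higher and 29.7% lower, against 21.7% and 22.7%). In LBD, 3 rose, 15 fell and 19 did not pass, or 48.6% against 40.0% of all genes (8.11% higher and 40.5% lower, against 19.0% and 21.0%). The median log2 fold change over the members was -0.09 in SUN2KO, 0 in Kashlid and -0.20 in LBD, beside 0, 0.01 and 0 over all genes tested. The pooled shares lay near those of all genes. By direction, the LBD calls were weighted to the lower side, and since the members were listed with results known, no test was made of that. The 3 comparisons use the same WT libraries.

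Of the 37, 2 rose in all 3 lines, MTHFD2 and MARS, where 10.3% of all genes did so. Another 7 fell in all 3, PHGDH, SLC7A5, SLC3A2, SLC1A4, GARS, IARS and NARS, where 12.8% of all genes did so. No member rose in one line and fell in another, a count that was not taken over all genes. In 12 members no line passed against WT (the share of all genes was not counted): ATF3, CEBPB, CEBPG, CHAC1, SESN2, PPP1R15A, VLDLR, ASNS, SLC1A5, HARS, SARS and TARS. Some of these passed in alternative fits, ASNS and ATF3 among them. All 6 libraries of the lines lay above both WT libraries for 5 members (21.5% of all genes did so) and below both for 10 (22.7% of all genes).

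**Figure D1:**
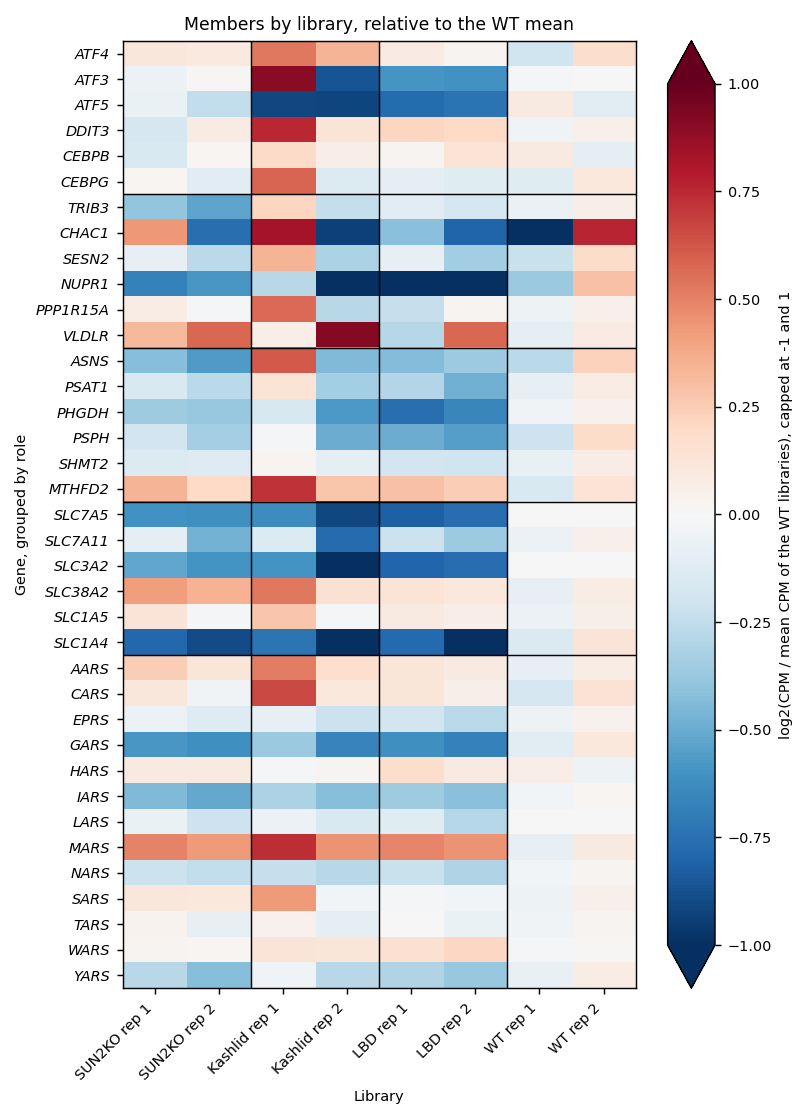
Level of each of the 37 members (rows, grouped by role) in each library (columns), as the log2 ratio of its CPM to the mean CPM of the 2 WT libraries, capped at -1 and 1. SLC7A5, SLC3A2 and SLC1A4 are low in all 6 libraries of the lines, MARS is high in all 6, and Kashlid replicate 1 is higher than replicate 2 in 35 of the 37 rows.

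The promoters of several members carry the sequence through which ATF4 acts, the C/EBP-ATF response element. RefSeq promoter windows on GRCh38.p14, from 250 bases before to 50 after the start site, were found for 31 members; NUPR1, PSPH, SHMT2, SLC7A11, LARS and YARS had none. Searched on both strands as TGATGNAA, its core occurred in 14 of the 31 and in 4.46% of all genes with a window. The members were listed largely as known ATF4 targets, so this excess is not independent of the choice. The palindromic cyclic AMP response element TGACGTCA occurred in PPP1R15A (2.25% of all genes), and the core of the interferon-stimulated response element in ATF5 and WARS (4.38% of all genes). No member promoter held more than 1 of the 3 motifs. The 14 were ATF3, CEBPG, CHAC1, ASNS, SLC3A2, SLC1A5, SLC1A4, AARS, CARS, GARS, IARS, MARS, NARS and TARS.

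The stretches below are those of 4 members with large changes against WT, in both directions, and of ASNS, a long-studied ATF4 target. Capitals mark the match to TGATGNAA, which reads forward in ASNS and lies on the opposite strand in the other 4, and sequences read 5′ to 3′ along the gene. For SLC1A4 (chr2:64989299-64989428, plus strand), GARS (chr7:30594778-30594907, plus strand), MARS (chr12:57487968-57488097, plus strand) and ASNS (chr7:97872379-97872508, minus strand) the stretch runs from 100 bases before to 30 bases after the RefSeq start site on GRCh38.p14. For SLC3A2 (chr11:62881719-62881748, plus strand), whose match lies 37 bases past the start site, only 30 bases around it are shown.
SLC1A4: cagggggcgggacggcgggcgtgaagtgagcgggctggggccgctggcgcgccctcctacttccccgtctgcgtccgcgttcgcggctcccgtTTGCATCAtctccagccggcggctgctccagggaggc
SLC3A2: gtaatgtgcaggactccTTACATCAgctcc
GARS: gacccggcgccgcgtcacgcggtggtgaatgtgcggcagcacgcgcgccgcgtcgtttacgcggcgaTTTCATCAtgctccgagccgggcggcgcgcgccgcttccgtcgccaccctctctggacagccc
MARS: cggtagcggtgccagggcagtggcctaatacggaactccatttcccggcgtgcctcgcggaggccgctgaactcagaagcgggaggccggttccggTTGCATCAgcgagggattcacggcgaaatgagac
ASNS: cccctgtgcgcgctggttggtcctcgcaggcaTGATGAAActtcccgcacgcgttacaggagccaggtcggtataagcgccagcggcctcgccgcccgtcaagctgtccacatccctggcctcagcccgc
SLC1A4 and MARS share the same 8 letters, TTGCATCA, which begin 7 and 4 bases before their start sites and run up to or across them. The transcripts of SLC1A4 and MARS moved in opposite directions against WT. A match in these windows is a description of the letters and not evidence of binding.

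Among the transcription factors, ATF4 itself rose in Kashlid, ATF5 fell in Kashlid and LBD, and in SUN2KO none of the 6 passed. ATF4 (chr22:39916569-39918691 on hg19, the build of the files) had 274 and 271 CPM in SUN2KO, 364 and 321 in Kashlid, and 268 and 258 CPM in LBD, against 220 and 286 in WT. Both Kashlid libraries were the highest of the 8, while the SUN2KO and LBD libraries lay inside the range of the WT pair. Its log2 fold change over WT was 0.44 ± 0.08 (SE) in Kashlid (edgeR, Benjamini-Hochberg adjusted p = 0.000149). It was 0.10 ± 0.08 in SUN2KO and 0.05 ± 0.08 in LBD, and neither passed. The Kashlid call stayed in every alternative run, with either Kashlid library left out. The authors' deposited comparison did not call it (DESeq2, Benjamini-Hochberg adjusted p = 0.108).

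ATF5, an ATF4-related factor that is also controlled at translation, lies at chr19:50433461-50437193. It had 14.5 and 12.8 CPM in SUN2KO, 8.09 and 8.04 in Kashlid, and 8.91 and 9.09 CPM in LBD, against 16.2 and 14.1 in WT. The 4 libraries of the truncation groups lay below all others, and SUN2KO overlapped WT. The log2 fold change over WT was -0.91 ± 0.14 in Kashlid and -0.75 ± 0.13 in LBD (edgeR, Benjamini-Hochberg adjusted p = 1.52e-05 and 0.000132), and both calls stayed in every alternative. The difference itself passed: ATF5 was lower in Kashlid than in SUN2KO by a log2 fold change of -0.76 ± 0.14 and lower in LBD than in SUN2KO by -0.60 ± 0.13 (edgeR, Benjamini-Hochberg adjusted p = 0.000421 and 0.00399).

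DDIT3 (CHOP), which promotes cell death under lasting stress, rose in Kashlid by 0.47 ± 0.16 on the log2 scale over WT (edgeR, Benjamini-Hochberg adjusted p = 0.0195). It had 20.2 and 13.1 CPM in Kashlid, against 11.7 and 12.4 in WT, and the call was lost without Kashlid replicate 1 (log2 fold change 0.13) and without either WT library. DDIT3 overlaps the 3′ end of MARS by 68 bases, and the strand setting of the counting is not given, so reads there could be shared. CEBPB and CEBPG, the C/EBP partners of ATF4, did not pass in any line, with log2 fold changes from -0.11 to 0.27.

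ATF3, an early stress factor, did not pass against WT in any line, but its Kashlid libraries were far apart. Its values, looked at after they had been seen, were 12.3 and 12.9 CPM in SUN2KO, 23.9 and 7.04 in Kashlid, and 8.50 and 8.43 CPM in LBD, against 12.7 and 12.8 in WT. The highest and the lowest of the 8 libraries were thus both Kashlid, and the LBD pair lay below the WT pair. ATF3 in LBD passed in the authors' deposited table (DESeq2, Benjamini-Hochberg adjusted p = 0.0298). It also passed with the 2 groups fitted alone and without a filter.

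**Figure D2:**
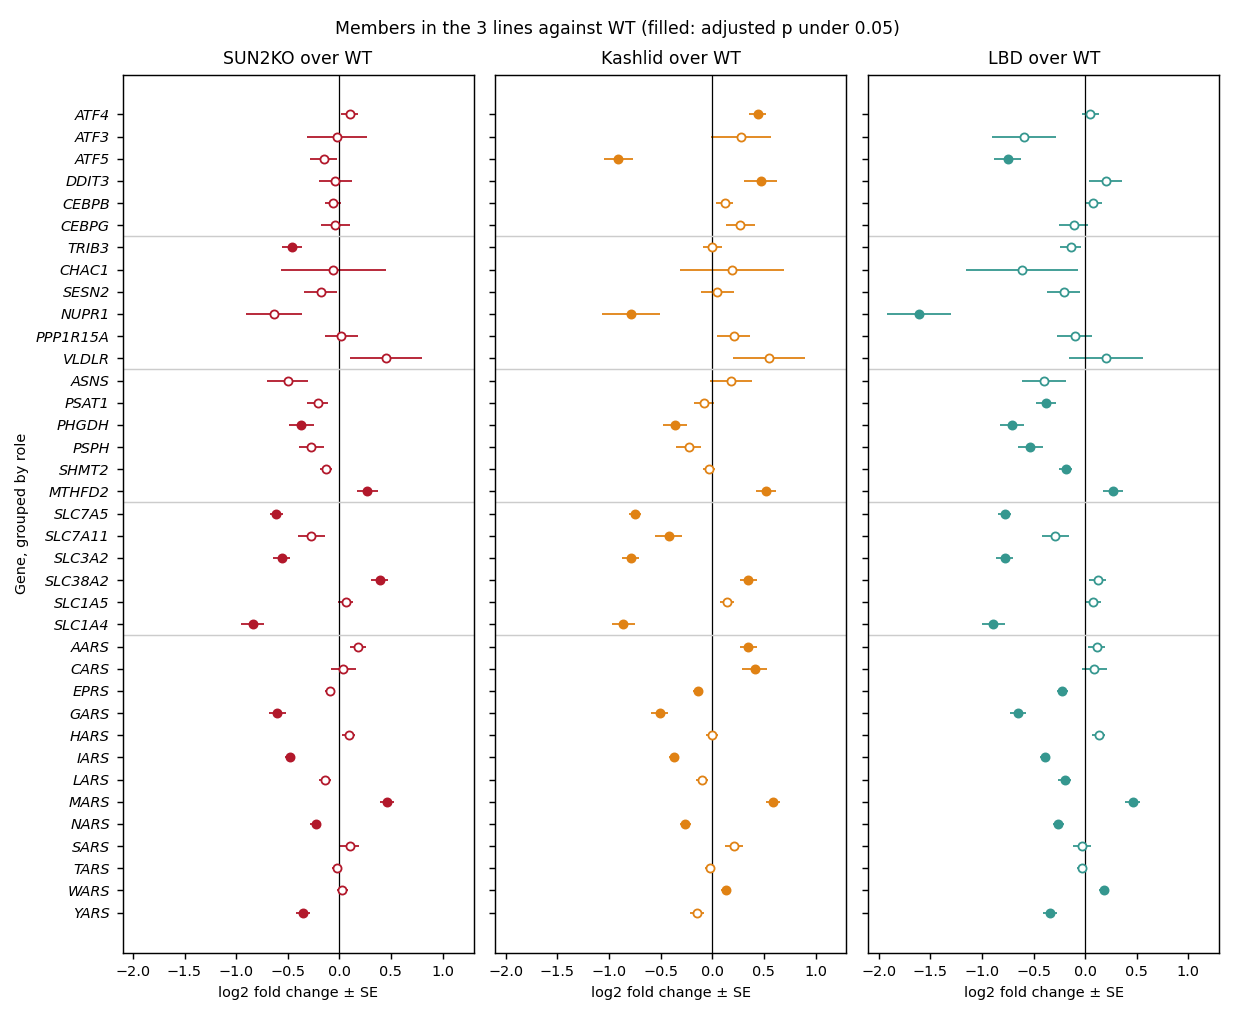
Log2 fold change over WT with its SE for each of the 37 members in SUN2KO, Kashlid and LBD (2 libraries each, all compared with the same 2 WT libraries); filled points had an adjusted p under 0.05. The transporters SLC7A5, SLC3A2 and SLC1A4 lie left of 0 in all 3 panels, between -0.56 and -0.89, and NUPR1 in LBD lies furthest left, at -1.61.

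Of the 6 effectors, 1 fell in each line (16.7%) and none rose, where 19.1%, 22.7% and 21.0% of all genes fell. The gene was TRIB3 in SUN2KO and NUPR1 in Kashlid and LBD. NUPR1, a small stress-induced chromatin protein at chr16:28548662-28550495, had 5.09 and 5.43 CPM in SUN2KO, 6.71 and 2.7 in Kashlid, and 2.78 and 2.57 CPM in LBD, against 6.30 and 10.0 in WT. Both LBD libraries lay below both WT libraries, at only 48 and 43 counts, while Kashlid replicate 1 overlapped WT. In LBD the log2 fold change over WT was -1.61 ± 0.31, or 3.05-fold lower (edgeR, Benjamini-Hochberg adjusted p = 0.000253). In Kashlid it was -0.79 ± 0.28 (edgeR, Benjamini-Hochberg adjusted p = 0.0259), and that call was lost without Kashlid replicate 2 and without WT replicate 2. The SUN2KO value of -0.63 ± 0.27 did not pass.

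TRIB3, a pseudokinase that damps ATF4 and CHOP, fell in SUN2KO by 0.46 ± 0.10 on the log2 scale against WT (edgeR, Benjamini-Hochberg adjusted p = 0.000754). It had 70.2 and 63.9 CPM in SUN2KO, against 88.3 and 96.2 in WT, with no overlap, and did not pass in Kashlid (0) or LBD (-0.14). Its genomic neighbours were lower too, with a median of -0.31 over its 5 Mb window. TRIB3 was also higher in Kashlid than in SUN2KO by 0.47 ± 0.10 and higher in LBD than in SUN2KO by 0.32 ± 0.10 (edgeR, Benjamini-Hochberg adjusted p = 0.00161 and 0.0315). SESN2, which restrains mTORC1, PPP1R15A, which brings a phosphatase back to eIF2, the glutathione-degrading CHAC1 and the lipoprotein receptor VLDLR did not pass against WT in any line.

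CHAC1, which is often read as an ATF4 marker, could not be ordered here, and its values were looked at after they had been seen. It had 5.74 and 2.53 CPM in SUN2KO, 7.57 and 2.23 in Kashlid, and 3.18 and 2.45 CPM in LBD, against 1.31 and 7.21 in WT. The 2 WT libraries, at 22 and 127 counts, spanned all but 1 of the other 6, and the SE over WT was 0.50 to 0.54 on the log2 scale.

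Of the 6 enzymes of serine, one-carbon and asparagine synthesis, 1 fell in SUN2KO, 1 in Kashlid and 4 in LBD, where 19.1%, 22.7% and 21.0% of all genes fell, and the mitochondrial folate enzyme MTHFD2 rose in each line. The difference between lines in these counts was not tested. PHGDH, the first enzyme of serine synthesis (chr1:120254419-120286849), had 19.5 and 19.1 CPM in SUN2KO, 22.3 and 16.7 in Kashlid, and 14.8 and 15.8 CPM in LBD, against 24.3 and 25.6 in WT. All 6 libraries of the lines lay below both WT libraries, the LBD pair lowest. The log2 fold change over WT was -0.37 ± 0.12 in SUN2KO, -0.36 ± 0.12 in Kashlid and -0.71 ± 0.12 in LBD (edgeR, Benjamini-Hochberg adjusted p = 0.0178, 0.019 and 9.63e-05). Only the LBD call stayed in every alternative. The SUN2KO call was lost without either SUN2KO library or WT replicate 2, and the Kashlid call without Kashlid replicate 2 or WT replicate 2. The difference between LBD and SUN2KO, and that between LBD and Kashlid, did not pass.

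PSPH, the last enzyme of that pathway (chr7:56078744-56119268), had 48.3 and 43.6 CPM in SUN2KO, 54.9 and 39.2 in Kashlid, and 39.2 and 37.7 CPM in LBD, against 48.0 and 62.7 in WT. The LBD libraries lay below both WT libraries, and the SUN2KO and Kashlid pairs overlapped WT. It fell in LBD by 0.53 ± 0.12 on the log2 scale (edgeR, Benjamini-Hochberg adjusted p = 0.00176), a call lost without WT replicate 2. PSAT1, the enzyme between them, fell in LBD by 0.38 ± 0.10 and SHMT2, which makes mitochondrial glycine from serine, by 0.19 ± 0.06 (edgeR, Benjamini-Hochberg adjusted p = 0.00388 and 0.012). The PSAT1 call was lost without LBD replicate 2 or WT replicate 2, and that of SHMT2 without either LBD library or WT replicate 2.

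MTHFD2 (chr2:74425690-74442424) had 218 and 197 CPM in SUN2KO, 284 and 208 in Kashlid, and 211 and 204 CPM in LBD, against 155 and 189 in WT. All 6 libraries of the lines lay above both WT libraries. The log2 fold change over WT was 0.27 ± 0.10 in SUN2KO, 0.52 ± 0.10 in Kashlid and 0.27 ± 0.10 in LBD (edgeR, Benjamini-Hochberg adjusted p = 0.0369, 0.000238 and 0.034). The Kashlid call stayed in every alternative. The call in SUN2KO was lost without either SUN2KO library or WT replicate 1, and that in LBD without either LBD library or WT replicate 1.

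ASNS, asparagine synthetase, had 27.9 and 25.3 CPM in SUN2KO, 57.5 and 27.6 in Kashlid, and 27.8 and 29.1 CPM in LBD, against 31.1 and 43.9 in WT; it was picked out after its values had been seen. The SUN2KO and LBD libraries all lay below WT, but the log2 fold changes of -0.50 ± 0.20 and -0.40 ± 0.21 did not pass. Both passed in the authors' deposited tables (DESeq2, Benjamini-Hochberg adjusted p = 0.00853 and 0.043). They also passed with the 2 groups fitted alone and without a filter, so the outcome depended on the fit. ASNS was higher in Kashlid than in SUN2KO by 0.68 ± 0.20 (edgeR, Benjamini-Hochberg adjusted p = 0.0228), a call that rested on Kashlid replicate 1: without it the log2 fold change was 0.06.

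**Figure D3:**
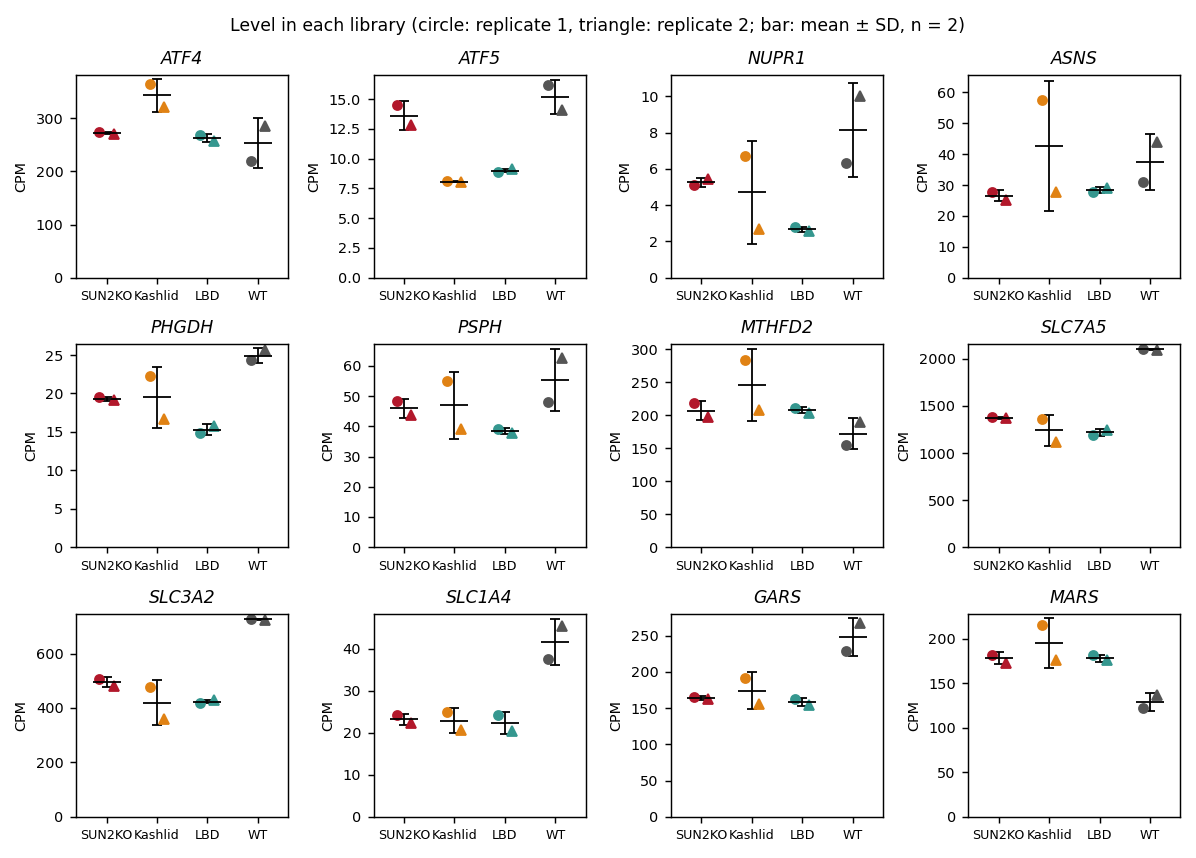
CPM of 12 members in each library of SUN2KO, Kashlid, LBD and WT (circle, replicate 1; triangle, replicate 2), with the mean and SD of the 2 libraries. In SLC7A5, SLC3A2, SLC1A4 and GARS the WT libraries sit above all 6 others, in MARS they sit below all 6, and in ASNS the Kashlid pair, at 57.5 and 27.6 CPM, spans the WT pair.

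Among the amino acid transporters, SLC7A5, SLC3A2 and SLC1A4 fell in all 3 lines, by 1.47-fold to 1.86-fold, and all 9 calls stayed in every alternative run. SLC7A5 and SLC3A2 are the light and heavy chains of CD98, the exchanger that brings leucine and other large neutral amino acids into the cell. SLC7A5 (chr16:87863629-87903100) had 1380 and 1370 CPM in SUN2KO, 1360 and 1120 in Kashlid, and 1190 and 1240 CPM in LBD, against 2100 and 2090 in WT. Its log2 fold change over WT was -0.61 ± 0.06 in SUN2KO, -0.75 ± 0.06 in Kashlid and -0.78 ± 0.06 in LBD (edgeR, Benjamini-Hochberg adjusted p = 4.7e-08, 1.22e-09 and 9.53e-10). The gap to WT was several times the spread within any group. Reads of its pseudogene copies SLC7A5P1 and SLC7A5P2 came to at most 0.637% of its own counts.

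SLC3A2 (chr11:62623484-62656355) had 507 and 481 CPM in SUN2KO, 479 and 360 in Kashlid, and 419 and 428 CPM in LBD, against 727 and 725 in WT. All 6 libraries of the lines were well below the WT pair. Its log2 fold change over WT was -0.56 ± 0.08 in SUN2KO, -0.79 ± 0.08 in Kashlid and -0.78 ± 0.08 in LBD (edgeR, Benjamini-Hochberg adjusted p = 8.36e-06, 5.37e-08 and 8.36e-08).

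SLC1A4, an exchanger of alanine, serine and cysteine (chr2:65216495-65251000), had 24.1 and 22.3 CPM in SUN2KO, 25.0 and 20.7 in Kashlid, and 24.2 and 20.5 CPM in LBD, against 37.6 and 45.4 in WT. The lines overlapped one another and none reached WT. Its log2 fold change over WT was -0.84 ± 0.11 in SUN2KO, -0.86 ± 0.11 in Kashlid and -0.89 ± 0.11 in LBD (edgeR, Benjamini-Hochberg adjusted p = 5.29e-06, 2.78e-06 and 2.38e-06), the largest changes among the transporters in each line.

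The other 3 transporters went different ways. SLC38A2, a sodium-coupled carrier of small neutral amino acids, had 1460 and 1390 CPM in SUN2KO, 1570 and 1210 in Kashlid, and 1200 and 1170 CPM in LBD, against 1030 and 1150 in WT. It rose in SUN2KO by 0.39 ± 0.08 and in Kashlid by 0.35 ± 0.08 on the log2 scale (edgeR, Benjamini-Hochberg adjusted p = 0.000363 and 0.000719), and the LBD value of 0.12 ± 0.08 did not pass. It was lower in LBD than in SUN2KO by a log2 fold change of -0.27 ± 0.08 (edgeR, Benjamini-Hochberg adjusted p = 0.0193). SLC7A11, the cystine carrier that also pairs with SLC3A2, fell in Kashlid by 0.42 ± 0.13 (edgeR, Benjamini-Hochberg adjusted p = 0.0104), a call lost without Kashlid replicate 2 or WT replicate 2. The SLC7A11 values of -0.27 ± 0.13 in SUN2KO and -0.29 ± 0.13 in LBD did not pass. All 6 libraries of the lines lay below both WT libraries, and both values passed without a filter, with the replicate block and with the 2 groups alone. The authors' deposited tables called SLC7A11 in LBD (DESeq2, Benjamini-Hochberg adjusted p = 0.00016), and not in SUN2KO or Kashlid (DESeq2, Benjamini-Hochberg adjusted p = 0.328 and 0.358). An antisense gene overlaps SLC7A11 by 14084 bases and reached at most 5.40% of its counts. SLC1A5, the glutamine carrier, did not pass in any line.

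The 13 synthetases, which load amino acids onto tRNAs, split by gene. GARS, IARS and NARS (glycine, isoleucine and asparagine) fell in all 3 lines and MARS (methionine) rose in all 3. HARS, SARS and TARS (histidine, serine and threonine) passed in none. Their median log2 fold change over WT was -0.02 in SUN2KO, -0.02 in Kashlid and -0.03 in LBD.

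MARS (chr12:57881736-57910438) had 182 and 173 CPM in SUN2KO, 215 and 176 in Kashlid, and 181 and 176 CPM in LBD, against 122 and 137 in WT. All 6 libraries of the lines lay above both WT libraries. The log2 fold change over WT was 0.46 ± 0.07 in SUN2KO, 0.59 ± 0.07 in Kashlid and 0.46 ± 0.07 in LBD (edgeR, Benjamini-Hochberg adjusted p = 5.71e-05, 1.57e-06 and 4.05e-05), and all 3 calls stayed in every alternative. The overlapping DDIT3 reached at most 349 counts, or 17.0% of the lowest count of MARS.

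GARS (chr7:30634181-30673648) had 166 and 162 CPM in SUN2KO, 192 and 156 in Kashlid, and 162 and 155 CPM in LBD, against 229 and 267 in WT. No library of the lines reached the lower WT library. The log2 fold change over WT was -0.60 ± 0.08 in SUN2KO, -0.51 ± 0.08 in Kashlid and -0.65 ± 0.08 in LBD (edgeR, Benjamini-Hochberg adjusted p = 3.48e-06, 1.54e-05 and 1.12e-06). The tested genes in its 5 Mb window were lower too, with a median of -0.43 in SUN2KO.

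IARS averaged 287 ± 9.94 CPM in SUN2KO, 310 ± 16.8 in Kashlid and 306 ± 8.89 in LBD, against 400 ± 8.87 CPM in WT (SD, n = 2 each). It fell by 0.48 ± 0.05, 0.37 ± 0.05 and 0.39 ± 0.05 on the log2 scale in SUN2KO, Kashlid and LBD (edgeR, Benjamini-Hochberg adjusted p = 2.44e-07, 4.59e-06 and 3.06e-06), in every alternative too. YARS (tyrosine) fell in SUN2KO by 0.35 ± 0.07 and in LBD by 0.34 ± 0.07 (edgeR, Benjamini-Hochberg adjusted p = 0.000687 and 0.00091), with -0.15 ± 0.07 in Kashlid, which did not pass. It overlaps S100PBP by 515 bases.

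Smaller calls made up the rest of the synthetases. AARS and CARS (alanine and cysteine) rose in Kashlid by 0.35 ± 0.08 and 0.41 ± 0.12 (edgeR, Benjamini-Hochberg adjusted p = 0.000874 and 0.00725), and the CARS call was lost without Kashlid replicate 1 or WT replicate 1. The AARS values of 0.18 ± 0.08 in SUN2KO and 0.11 ± 0.08 in LBD did not pass, though all 6 libraries of the lines lay above both WT libraries. The authors' deposited tables called AARS in SUN2KO and not in Kashlid (DESeq2, Benjamini-Hochberg adjusted p = 0.0142 and 0.157). EPRS (glutamate and proline) fell in Kashlid by 0.14 ± 0.05 and in LBD by 0.22 ± 0.05, and LARS (leucine) in LBD by 0.20 ± 0.06 (edgeR, Benjamini-Hochberg adjusted p = 0.0283, 0.00183 and 0.0111). The EPRS call in Kashlid was lost without Kashlid replicate 2 or WT replicate 2, and the LARS call without LBD replicate 2 or WT replicate 1.

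WARS, the tryptophan enzyme, is also known as an interferon-induced gene. It had 197 and 196 CPM in SUN2KO, 211 and 210 in Kashlid, and 215 and 223 CPM in LBD, against 191 and 195 in WT. It rose by 0.13 ± 0.05 in Kashlid and by 0.18 ± 0.05 in LBD (edgeR, Benjamini-Hochberg adjusted p = 0.0421 and 0.005). The Kashlid call was lost with any of its 4 libraries left out, and the LBD call without LBD replicate 2 or WT replicate 1. Of 16 other interferon-stimulated genes, 11 rose and 2 fell in Kashlid, 10 rose and 1 fell in LBD, and 1 rose and 4 fell in SUN2KO. Over all genes the shares were 21.7% higher and 22.7% lower in Kashlid, 19.0% and 21.0% in LBD, and 17.5% and 19.1% in SUN2KO. The part of interferon-stimulated genes in the WARS values was not tested.

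**Figure D4:**
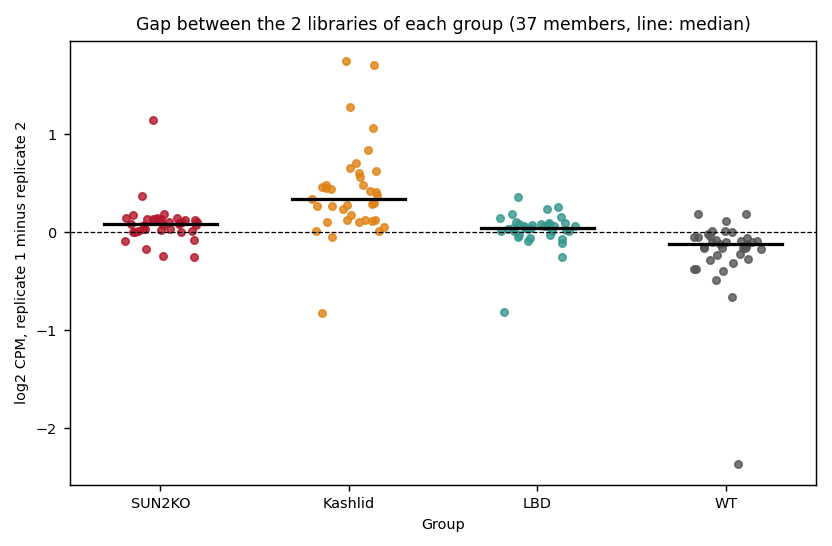
Log2 CPM of replicate 1 minus that of replicate 2 for each of the 37 members in SUN2KO, Kashlid, LBD and WT, with the median as a line. The Kashlid median is 0.34 with 35 of 37 points above 0, and the WT median is -0.12 with 6 of 37 above 0.

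The members varied together between libraries of the same group. Replicate 1 was above replicate 2 in 31 of 37 members in SUN2KO, 35 in Kashlid and 28 in LBD, against 6 in WT. Over all genes tested the shares were 53.4%, 49.2% and 51.2%, against 50.3% in WT. Kashlid replicate 1 was the highest of the 8 libraries for 19 members and WT replicate 2 for 11, a count not made over all genes. The Kashlid gap was largest in the effectors, with a median of 0.75, and smallest in the synthetases, with 0.13, on the log2 scale.

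With 1 Kashlid library left out, the lone library was taken to vary like the other groups. Without replicate 1, 6 members rose and 17 fell in Kashlid over WT, where 19% of all genes rose and 20% fell. Without replicate 2, 15 rose and 7 fell, where 19.2% of all genes rose and 19.6% fell. ATF3, TRIB3 and ASNS passed in opposite directions in those fits. ASNS had a log2 fold change of -0.44 ± 0.14 without replicate 1 and 0.62 ± 0.12 without replicate 2 (edgeR, Benjamini-Hochberg adjusted p = 0.0119 and 0.000178). ATF3 had -0.85 ± 0.17 without replicate 1 and 0.91 ± 0.14 without replicate 2 (edgeR, Benjamini-Hochberg adjusted p = 0.000257 and 4.54e-06). The Kashlid calls of ATF4, MTHFD2, MARS and AARS (higher) and of ATF5, SLC7A5, SLC3A2, SLC1A4 and IARS (lower) stayed with either library left out and in every other alternative. The authors' deposited comparison of Kashlid with WT did not call ATF4, MTHFD2 or AARS (DESeq2, Benjamini-Hochberg adjusted p = 0.108, 0.137 and 0.157).

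Between the lines fewer members differed. Kashlid differed from SUN2KO in 7 members, 5 higher and 2 lower, or 18.9% against 18.0% of all genes (8.92% higher and 9.13% lower). The 5 were ATF4, DDIT3, TRIB3, ASNS and CARS, and the 2 were ATF5 and SLC3A2. Without Kashlid replicate 2 the split was 19 higher and 1 lower (8.08% and 8.44% of all genes), and without replicate 1 it was 2 higher and 7 lower (7.3% and 7.55% of all genes). ATF5 and TRIB3 kept their calls in every alternative.

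LBD differed from SUN2KO in 6 members, 2 higher and 4 lower, or 16.2% against 13.5% of all genes (6.69% higher and 6.79% lower). TRIB3 and WARS were higher and ATF5, NUPR1, SLC7A5 and SLC38A2 lower, and at most 1 passed with any library left out. LBD differed from Kashlid in 1 member, against 2.91% of all genes (1.63% higher and 1.28% lower). It was ATF4, at a log2 fold change of -0.38 ± 0.08 (edgeR, Benjamini-Hochberg adjusted p = 0.0106). That call was lost without Kashlid replicate 1 (-0.29 ± 0.08; edgeR, Benjamini-Hochberg adjusted p = 0.0595). Without Kashlid replicate 2, 24 members were lower in LBD than in Kashlid, where 3.03% of all genes were.

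Some members moved with their genomic neighbourhood. For each member the median log2 fold change of the tested genes in its 5 Mb window on hg19 was set beside its own value, for windows with at least 15 tested genes. NARS matched its window: -0.23 beside -0.24 in SUN2KO, -0.26 beside -0.26 in Kashlid and -0.26 beside -0.26 in LBD. With the window median taken out as an offset, its log2 fold change was 0.01 in SUN2KO and 0 in Kashlid and LBD, and no call remained. GARS lay in a window at -0.43 in SUN2KO, -0.38 in Kashlid and -0.39 in LBD. After the offset its log2 fold change was -0.17 in SUN2KO, -0.13 in Kashlid and -0.26 in LBD, and only the LBD call remained. The calls of MTHFD2 in SUN2KO and LBD, of YARS in SUN2KO, of DDIT3 in Kashlid, and of EPRS and WARS in Kashlid and LBD were also lost with the offset. Not all of these followed their window. MTHFD2 had windows at 0.04 in SUN2KO and 0.02 in LBD, and 0.23 and 0.25 remained less that median. DDIT3 in Kashlid had a window at 0.07, and 0.4 remained. Calls were also gained with the offset: SHMT2 and AARS in SUN2KO, CEBPB and TRIB3 in Kashlid, and AARS in LBD.

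TRIB3 in SUN2KO lay in a window at -0.31 and kept -0.15 with the offset, which did not pass. SLC38A2 lay in windows at 0.22 in SUN2KO and 0.26 in Kashlid, kept 0.17 and 0.09 with the offset, and passed in neither. SLC7A5 had windows at -0.23, -0.26 and -0.25 in SUN2KO, Kashlid and LBD and kept -0.38, -0.49 and -0.53, which passed in all 3. The windows of SLC3A2, SLC1A4, IARS and MARS were between -0.14 and 0.13, and their calls stayed. PHGDH, PSPH, PSAT1 and SLC7A11 had no window with enough genes, so the offset did not adjust them. Copy number was not measured, so a change of a chromosome segment cannot be told apart from regulation shared by neighbours.

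**Figure D5:**
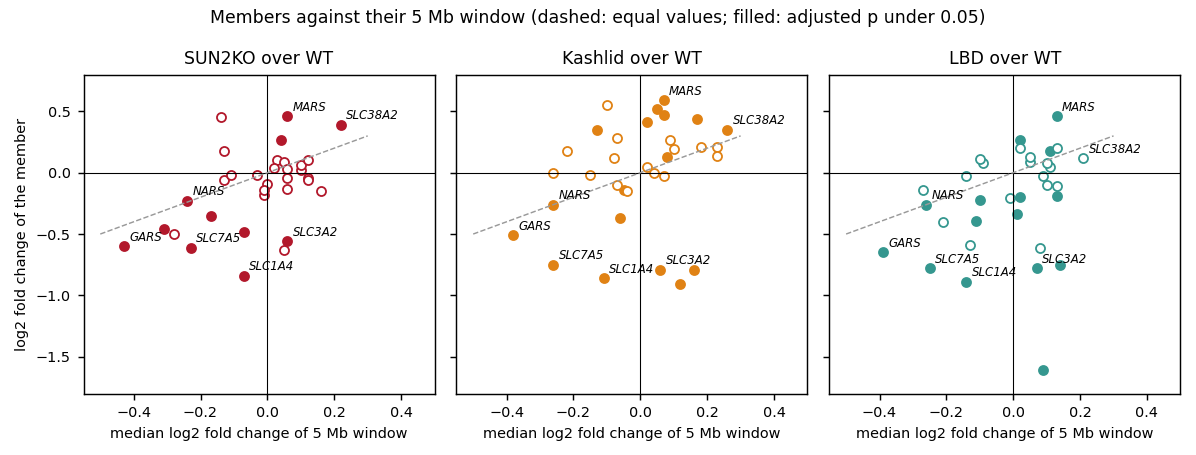
Log2 fold change over WT of each member against the median log2 fold change of tested genes in its 5 Mb window, for SUN2KO, Kashlid and LBD; the dashed line marks equal values and filled points had an adjusted p under 0.05. NARS lies on the line in all 3 panels, GARS lies near it at the far left, and SLC3A2, SLC1A4 and MARS lie far from it.

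Other genes of the pathway moved in both directions, and of all genes 36.7% were called in SUN2KO, 44.5% in Kashlid and 40.0% in LBD. Of 16 genes for eIF2 kinases, eIF2, eIF2B and eIF2 phosphatase subunits, 3 rose and 2 fell in SUN2KO, 2 rose and 2 fell in Kashlid, and 2 rose and 3 fell in LBD. EIF2AK1, the heme-sensing kinase, fell by 0.24 ± 0.05 on the log2 scale in SUN2KO, 0.26 ± 0.05 in Kashlid and 0.33 ± 0.05 in LBD (edgeR, Benjamini-Hochberg adjusted p = 0.000785, 0.000248 and 2.56e-05). The tested genes in its genomic window were lower too, with a median of -0.18 in SUN2KO and -0.15 in Kashlid. Less that median, the log2 fold change of EIF2AK1 was -0.05 in SUN2KO and -0.11 in Kashlid. EIF2AK3 and EIF2AK4, which sense unfolded protein and uncharged tRNA, passed in none of the lines. EIF2B4, a subunit of the exchange factor of eIF2, rose in SUN2KO, Kashlid and LBD by 0.39 ± 0.08, 0.32 ± 0.08 and 0.33 ± 0.08 (edgeR, Benjamini-Hochberg adjusted p = 0.000537, 0.00293 and 0.00217).

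Of 23 other reported ATF4 or CHOP targets tested, 3 rose and 7 fell in SUN2KO, 6 rose and 4 fell in Kashlid, and 4 rose and 7 fell in LBD. DDIT4, an inhibitor of mTORC1, averaged 920 ± 18.8 CPM in SUN2KO, 1140 ± 119 in Kashlid and 957 ± 71.2 in LBD, against 607 ± 33.2 CPM in WT (SD, n = 2 each). It rose in all 3 lines (edgeR, Benjamini-Hochberg adjusted p = 1.22e-07, 1.74e-10 and 2.28e-08). GDF15, a secreted stress cytokine, averaged 36.4 ± 1.14 CPM in SUN2KO, 22.1 ± 8.01 in Kashlid and 26.2 ± 2.98 in LBD, against 68.8 ± 6.05 CPM in WT (SD, n = 2 each). It fell in all 3 (edgeR, Benjamini-Hochberg adjusted p = 1.26e-05, 7.95e-09 and 7.43e-08). ALDH1L2, a mitochondrial folate enzyme like MTHFD2, fell in all 3, by 1.11 ± 0.12, 0.44 ± 0.12 and 0.94 ± 0.12 on the log2 scale in SUN2KO, Kashlid and LBD (edgeR, Benjamini-Hochberg adjusted p = 5.38e-07, 0.0048 and 3.8e-06).

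The remaining 10 genes for cytosolic synthetases and their scaffold had 1 higher and 1 lower in SUN2KO, 3 higher and 3 lower in Kashlid, and 1 higher and 2 lower in LBD. The scaffold gene AIMP1 fell in each line, by 0.42 ± 0.07, 0.34 ± 0.07 and 0.34 ± 0.07 in SUN2KO, Kashlid and LBD (edgeR, Benjamini-Hochberg adjusted p = 6.71e-05, 0.00039 and 0.00051). Of 17 mitochondrial synthetases, 2 rose and 3 fell in SUN2KO, 1 rose and 4 fell in Kashlid, and 2 rose and 3 fell in LBD.

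The listed genes of the ATF6 and XBP1 branches, which respond to unfolded protein, are mainly chaperones of the endoplasmic reticulum. In SUN2KO 13 of 13 of them fell, where 19.1% of all genes fell. In Kashlid 2 rose and 4 fell, and in LBD 3 rose and 2 fell, or 46.2% and 38.5% called, near the 44.5% and 40.0% of all genes. HSPA5 (BiP), the main chaperone of that compartment, averaged 1260 ± 33.6 CPM in SUN2KO, 2080 ± 197 in Kashlid and 2170 ± 10.4 in LBD, against 2020 ± 61.5 CPM in WT (SD, n = 2 each). It fell in SUN2KO by 0.68 ± 0.05 on the log2 scale (edgeR, Benjamini-Hochberg adjusted p = 1.01e-09). HSP90B1 and DNAJC3 fell further in SUN2KO, by 0.89 ± 0.04 and 1.12 ± 0.06 (edgeR, Benjamini-Hochberg adjusted p = 9.88e-13 and 4.09e-11). Unlike HSPA5, both also had lower means in the truncation groups than in WT. HSP90B1 averaged 1140 CPM in Kashlid and 1170 in LBD, against 1490 in WT. DNAJC3 averaged 76.6 CPM in Kashlid and 81.9 in LBD, against 109 in WT.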

How the data were processed

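RNA from MDA-MB-231 cells (8 libraries, 2 per group) was sequenced as read pairs. Reads were trimmed with Trim Galore, aligned to hg19 with STAR 2.7.1a and counted with HTSeq, with bedtools 2.24.0 and DESeq2 also used, per the submitters' processing notes. Neither the annotation nor the use of strand is given in the sources used here. The authors deposited raw counts for 25369 genes; 0 entries named no gene. The authors also deposited 3 comparison tables without column names, used here only for hg19 coordinates and as a check: the deposited log2 fold changes correlated at 0.999 with those computed here, and the deposited p-values were recognised by their Benjamini-Hochberg adjustment. Another 12 columns of values per library were not used.

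The fits used edgeR 4.0.16 in R 4.3.3. After TMM scaling and filterByExpr, which kept 14016 genes, each group had 1 coefficient in a quasi-likelihood fit of the 8 libraries, leaving 4 residual degrees of freedom. All p-values are two-sided, at a Benjamini-Hochberg adjusted p of 0.05 over all genes. CPM is given per library or with the SD of 2, and is compared only within a gene. Totals of 16570099 to 18814795 counts per library gave the members 22 counts or more; CHAC1, VLDLR, NUPR1 and ATF3 had the largest SE. Alternatives were other scaling, other filters (none, or 5 CPM in 2 libraries), DESeq2 1.42.0, fits of 2 groups alone, a replicate block, each library left out, and an offset for 5 Mb windows. The fit was tested on simulated counts for SUN2KO over WT, in which 197 of 13802 genes were changed, far fewer than the 5137 called in the data. Of 157 calls, 12 were false. Genes changed 1.5-fold were called in 67% of cases and those changed 2-fold in 80%. Smaller changes were not simulated.

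Library values are given for ATF4 and for members that passed against WT at a log2 fold change of at least 0.5 in size and at least 5 CPM, at most 5 per role; other values are marked or belong to a result beside them. The members and lists were chosen with earlier results of these data known, so no list was tested. Promoter windows are RefSeq's, on GRCh38.p14.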

Additional observations from a re-analysis of the deposited data

Results flagged for a closer look

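The members below differed between lines in their change against WT, by edgeR's test of the difference itself; values are log2 fold changes. Between Kashlid and SUN2KO the differences were 0.33 for ATF4, -0.76 for ATF5, 0.51 for DDIT3, 0.47 for TRIB3, 0.68 for ASNS, -0.24 for SLC3A2 and 0.37 for CARS. Between LBD and SUN2KO they were -0.60 for ATF5, 0.32 for TRIB3, -0.97 for NUPR1, -0.17 for SLC7A5, -0.27 for SLC38A2 and 0.16 for WARS. Between LBD and Kashlid it was -0.38 for ATF4. SLC3A2 and SLC7A5 fell against WT in both lines of their pair and differed in size. Those of ATF5 and TRIB3 between Kashlid and SUN2KO held in every alternative.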

How the results depend on the processing

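Of 63 calls of a member in a comparison, 756 values under alternatives gave 626 on the same side of the threshold, 129 that no longer passed and 1 that reversed, NARS in SUN2KO over WT (0.01 with the window offset). Without a filter, members called were 19 (SUN2KO over WT), 13 (Kashlid over SUN2KO), 11 (LBD over SUN2KO) and 13 (LBD over Kashlid, with 775 genes called). With DESeq2 they were 12 (Kashlid over WT), 2 (Kashlid over SUN2KO), 2 (LBD over SUN2KO, with 1246 genes) and 0 (LBD over Kashlid). With the 2 groups alone they were 21 (SUN2KO over WT) and 11 (LBD over SUN2KO), and LBD over Kashlid had 129 genes. With the window offset LBD over Kashlid had 2 members. The cause of these shifts was not tested. Over all genes tested, deviations of same-numbered libraries were nearly uncorrelated between groups (correlations from -0.00742 to 0.0844). Among the members, replicate 1 was above replicate 2 in 31 of 37 in SUN2KO, 35 in Kashlid and 28 in LBD, against 6 in WT. Whether same-numbered libraries shared a step that moved the members was not tested. With the replicate block the members called were 17 in SUN2KO, 20 in Kashlid and 19 in LBD over WT. They were 8 in Kashlid and 7 in LBD over SUN2KO, and 2 in LBD over Kashlid. Counts over all genes are not given here for the replicate block, the window offset or the authors' tables. They are given for only some comparisons without a filter, with DESeq2 and with the 2 groups alone. Member counts without them cannot be set beside all genes. With 1 library left out, members called ranged over 10 to 15 (3569 to 3640 genes) for SUN2KO, 14 to 23 (4720 to 5606) for Kashlid and 13 to 17 (4014 to 4347) for LBD over WT. They ranged over 2 to 20 (1186 to 2375) for Kashlid and 0 to 1 (884 to 1355) for LBD over SUN2KO, and 0 to 24 (129 to 839) for LBD over Kashlid. Other scaling moved the median of all genes by at most 0.039. The authors' deposited tables called 13, 8 and 20 members in SUN2KO, Kashlid and LBD over WT, of which 10, 8 and 17 were called here in the same direction. Called here and not there in Kashlid were ATF4, DDIT3, NUPR1, PHGDH, MTHFD2, SLC7A11, SLC38A2, AARS, CARS, EPRS and WARS. In SUN2KO these were PHGDH and MTHFD2, and in LBD MTHFD2. Called there and not here were ASNS, PSAT1 and AARS in SUN2KO and ATF3, ASNS and SLC7A11 in LBD.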
